A study of Mus musculus with 10 samples.

Results

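The chemokine genes described here are the ligands of the Ccl, Cxcl, Cx3cl and Xcl families, the receptors of the Ccr, Cxcr, Cx3cr and Xcr families, and the atypical receptors of the Ackr family. They were chosen by symbol, with the brightest probe set standing for each gene, and the rule found 55 genes among 22180 genes that had a probe set with 1 gene symbol. Of these 55, 34 were ligands, 17 were receptors and 4 were atypical receptors. Levels above the filter on low values were found for 53 of them (33 ligands, 16 receptors and 4 atypical receptors), among 18826 genes tested. Ccr3, the eotaxin receptor, and Cxcl3, a ligand that draws neutrophils, lay below the 25th percentile of their array on all 10 arrays and were not tested.

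RNA of salivary gland cells was hybridised to 10 Affymetrix arrays, each numbered as a separate female NOD/ShiLtJ mouse, a strain prone to autoimmune diabetes and to inflammation of the salivary glands. The groups were 4 mice with type 1 diabetes at 21 weeks of age, 3 mice without diabetes at 21 weeks and 3 mice without diabetes at 6 weeks. All glands were digested with dispase II and collagenase IV, the cells were filtered, and total RNA was extracted with Trizol. Which gland was taken is not stated in the labels. The strain carries no transgene in the labels, and the labels name no treatment that differs between the groups. Beyond the numbering, no label says how the mice were housed or related, so p-values measure the spread between these samples, which may be technical in part.

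Chemokines are small secreted proteins that bind receptors coupled to G proteins on leukocytes and guide the cells along a gradient. Homeostatic members such as Cxcl13, Ccl19 and Ccl21 place lymphocytes in lymphoid organs, while inflammatory members recruit monocytes, neutrophils, eosinophils and activated T cells. Atypical receptors bind chemokines without the usual G protein signal and take them up. In salivary glands with chronic autoimmune inflammation, lymphocytes gather in foci around ducts, and Cxcl13 with its receptor Cxcr5 is known from such foci.

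The sequences upstream of 4 ligands that rose in the comparisons below are shown because Cxcl13 had the largest change among the chemokine genes and because Ccl9, Ccl6 and Ccl8 lie among 2 groups of neighbouring chemokine genes. Each is the 250 bases before the annotated gene start, from RefSeq for GRCm38.p6, 5′ to 3′ on the strand of the gene. The reference is the C57BL/6J genome and the mice were NOD, so a base of the mice may differ. The windows are chr5:95956689-95956938 on the plus strand for Cxcl13, chr11:83578637-83578886 on the minus strand for Ccl9, chr11:83593088-83593337 on the minus strand for Ccl6 and chr11:82114935-82115184 on the plus strand for Ccl8. Capitals mark matches, on either strand, to the letters of an NF-kB motif (GGG and CC with any 5 bases between them), an AP-1 motif (TGANTCA) or a TATA motif (TATAAA).
Cxcl13: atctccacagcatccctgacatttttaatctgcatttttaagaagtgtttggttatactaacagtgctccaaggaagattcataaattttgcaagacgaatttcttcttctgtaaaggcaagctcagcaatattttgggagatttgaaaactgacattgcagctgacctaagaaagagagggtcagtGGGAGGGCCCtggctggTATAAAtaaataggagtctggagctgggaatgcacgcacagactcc
Ccl9: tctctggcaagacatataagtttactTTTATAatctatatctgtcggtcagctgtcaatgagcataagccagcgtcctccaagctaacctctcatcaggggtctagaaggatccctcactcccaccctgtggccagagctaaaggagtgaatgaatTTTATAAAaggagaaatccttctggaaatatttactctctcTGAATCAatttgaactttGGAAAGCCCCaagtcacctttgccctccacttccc
Ccl6: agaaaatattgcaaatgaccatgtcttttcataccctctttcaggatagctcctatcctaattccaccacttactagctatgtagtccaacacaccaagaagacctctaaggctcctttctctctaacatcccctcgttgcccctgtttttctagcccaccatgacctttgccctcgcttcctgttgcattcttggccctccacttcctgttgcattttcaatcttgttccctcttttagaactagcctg
Ccl8: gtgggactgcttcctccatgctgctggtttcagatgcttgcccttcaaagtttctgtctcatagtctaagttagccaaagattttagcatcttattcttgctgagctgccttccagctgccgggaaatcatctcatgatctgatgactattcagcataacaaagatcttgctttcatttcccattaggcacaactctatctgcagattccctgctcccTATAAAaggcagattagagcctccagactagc

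The NF-kB letters were found in the Cxcl13 window at positions −63 to −54 from the gene start and in the Ccl9 window at −35 to −26, the Ccl9 match lying on the opposite strand. A TATA match lay at −46 to −41 in the Cxcl13 window and at −32 to −27 in the Ccl8 window, and the Ccl9 window held 3 TATA matches, of which 2 overlap, and the AP-1 letters at −53 to −47. None of these 3 motifs was in the Ccl6 window. A promoter window was held for 41 of the 55 chemokine genes, but not for Ccl11, a neighbour of Ccl8 that also rose with diabetes. The NF-kB letters stood in 55.6% of 45 windows of chemokine genes and in 45.8% of 32851 windows of all genes of the same kind. TATA letters stood in 28.9% of the chemokine windows against 12.4% of all windows, and AP-1 letters in 11.1% against 6.75%. Of 3 further motifs, the interferon response letters (GAAA and GAAA, 2 bases apart) stood in 4.44% against 2.98%, the STAT letters (TTC and GAA, 3 bases apart) in 6.67% against 7.02% and the STAT6 letters (TTC and GAA, 4 bases apart) in 2.22% against 5.85%. These are matches of letters and say nothing of binding.

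In the arrays as a whole, 2 stood somewhat apart: nondiabetic 21-week array 3 and diabetic array 4 correlated at 0.917 with each other over the tested genes, the lowest correlation of any pair. All values below are log2 intensities and changes are differences of log2 intensity ± their standard error from limma. Adjusted p-values are limma's, after Benjamini-Hochberg adjustment over all 18826 genes, and a gene is said to be called, or to rise or fall, where this p is under 0.05. The number of arrays limits the precision. Epithelial markers also differed between the groups. Acinar cell markers (11 measured of 12) averaged 10.2 to 10.5 per array in diabetic mice. Their averages were 6.34 to 7.83 in nondiabetic 21-week and 7.26 to 9.29 in nondiabetic 6-week mice. With diabetes 6 of the 11 rose, and 9 changes were positive and 2 negative, from −0.28 to 7.11. Markers of granular convoluted tubules (8 of 10) averaged 4.66 to 6.74 in diabetic mice, against 9.31 to 10.1 in nondiabetic 21-week and 8.08 to 8.59 in nondiabetic 6-week mice, and all 8 fell with diabetes. The part of this difference in the chemokine results was not tested. No marker list had a member below the 25th percentile on every array. In bulk RNA, fewer cells of a type and less RNA per cell cannot be told apart.

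The first comparison set diabetic against nondiabetic mice of 21 weeks. Cxcl13, Ccl9, Ccl11 and Ccl6 rose, 0 of the 53 chemokine genes fell, and 0 receptors were called. The 4 are 7.55% of the 53, while 1.44% of all genes (271) were called, 1.1% higher and 0.34% lower. The groups did not overlap for 12 chemokine genes (22.6%), 10 of them higher and 2 lower, against 14.1% of all genes, 9.11% higher and 4.98% lower. The unadjusted p was under 0.05 for 15 of the 53 chemokine genes, against 2978 of all 18826 genes (15.8%). Ackr4, among these 15, passed the filter through the nondiabetic groups, where it was higher, so its place in this count is a description. The median change was 0.11 over the 53 chemokine genes and 0.03 over all genes, and by class it was 0.13 for ligands, 0.00 for receptors and 0.07 for atypical receptors.

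Cxcl13, the ligand that draws B cells into follicles, measured 7.10, 7.03, 8.58 and 9.19 in diabetic mice, against 5.25, 4.60 and 4.04 in nondiabetic 21-week mice and 5.54, 4.62 and 5.29 in nondiabetic 6-week mice. Every diabetic array lay above every nondiabetic array of both ages, and diabetic arrays 3 and 4 were the highest. The change with diabetes was 3.35 ± 0.48 (10.2-fold, adjusted p = 0.00482), the 13th largest rise among all genes tested by log2 change. The B cell marker mean over 11 genes was 4.67, 4.46, 4.49 and 5.90 in diabetic mice, against 4.67, 4.53 and 4.09 in nondiabetic 21-week mice, and was highest in diabetic array 4. The plasma cell marker mean over 8 genes was 5.51, 5.54, 6.00 and 6.61 in diabetic mice, against 5.40, 5.56 and 5.42 in nondiabetic 21-week mice. It was highest in diabetic arrays 3 and 4, as Cxcl13 was. Of the 8 plasma cell markers, 6 had a positive and 2 a negative change with diabetes, the lowest −0.46. Only 1 of the 8 rose, Xbp1 by 0.61 ± 0.12 (adjusted p = 0.0250). The part of the acinar difference in the plasma cell markers was not tested. The part of B and plasma cell markers in the Cxcl13 values was not tested. Without diabetic array 4 the Cxcl13 change was 2.94 (adjusted p = 0.00592), and without both arrays that stood apart it was 2.65 (adjusted p = 0.0188).

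Cxcr5, the receptor of Cxcl13 on B cells and follicular T cells, measured 4.03, 4.18, 3.65 and 5.58 in diabetic mice, against 4.37, 4.48 and 4.24 in nondiabetic 21-week mice and 4.02, 3.87 and 3.98 in nondiabetic 6-week mice. Diabetic array 4 was the only diabetic array above the nondiabetic 21-week mice. Its change with diabetes was −0.01 ± 0.33 (adjusted p = 0.995), so the ligand and its receptor did not both pass the test.

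**Figure D1:**
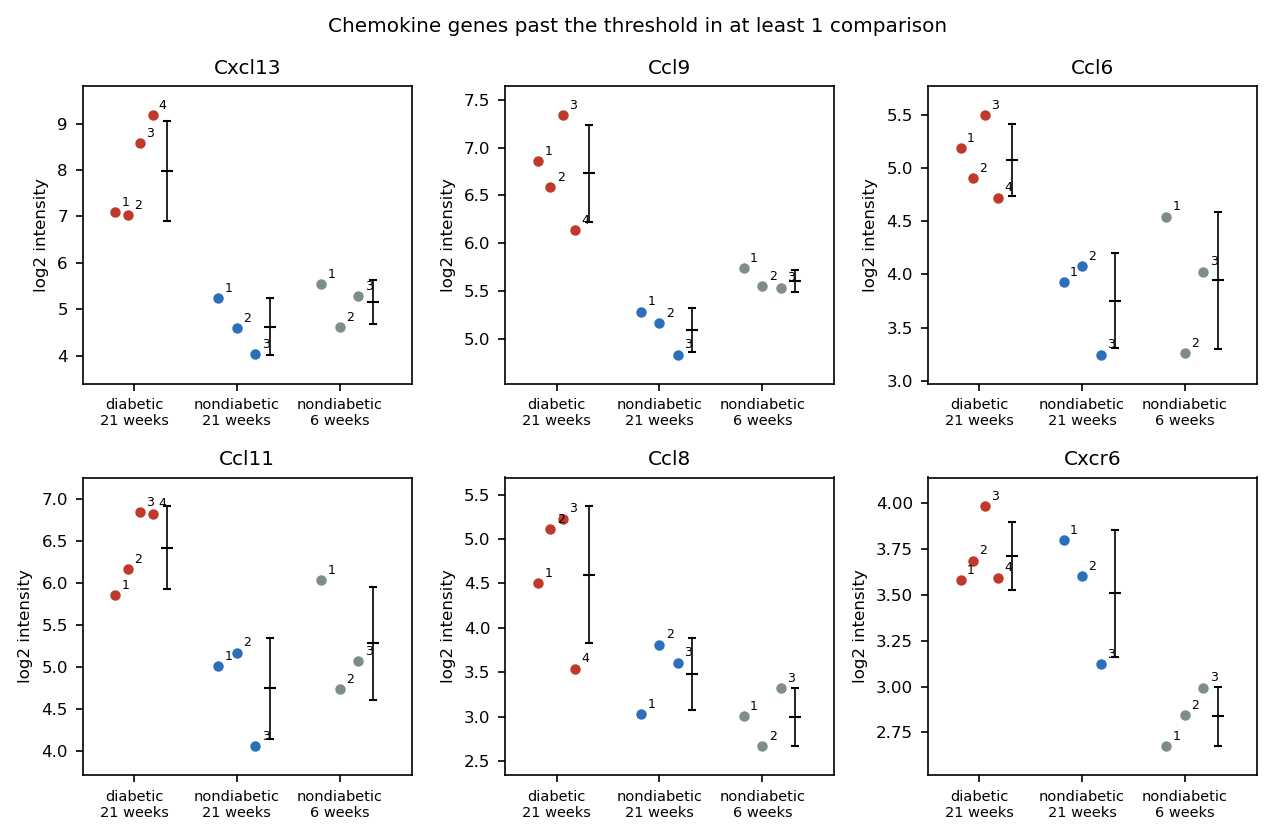
Log2 intensity of the 6 chemokine genes called in at least 1 comparison, 1 point per array with its number and group means ± SD beside the points, for diabetic 21-week (n = 4), nondiabetic 21-week (n = 3) and nondiabetic 6-week mice (n = 3). For Cxcl13 and Ccl9 the 4 diabetic arrays lay above all 6 nondiabetic arrays.

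Ccl9, a CC ligand of mice that myeloid cells secrete and that binds Ccr1, measured 6.86, 6.59, 7.34 and 6.14 in diabetic mice, against 5.29, 5.17 and 4.84 in nondiabetic 21-week mice and 5.75, 5.56 and 5.54 in nondiabetic 6-week mice. All diabetic arrays were above all nondiabetic arrays. The change with diabetes was 1.63 ± 0.23 (3.10-fold, adjusted p = 0.00415), and Ccl9 passed the threshold in all 10 fits that left out 1 array.

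Ccl6, a related mouse CC ligand of macrophages that also binds Ccr1, measured 5.18, 4.91, 5.50 and 4.72 in diabetic mice, against 3.93, 4.08 and 3.25 in nondiabetic 21-week mice and 4.54, 3.26 and 4.03 in nondiabetic 6-week mice. The diabetic arrays again lay above all nondiabetic arrays, with a change with diabetes of 1.32 ± 0.29 (2.50-fold, adjusted p = 0.0420). The call was lost in 7 of 10 fits that left out 1 array, with adjusted p reaching 0.176. Arrays whose omission ended it were diabetic arrays 1, 2 and 3, all 3 nondiabetic 21-week arrays and nondiabetic 6-week array 3.

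Ccr1, the receptor of Ccl9 and Ccl6 on monocytes and neutrophils, averaged 2.67 ± 0.26 in diabetic mice and 2.89 ± 0.24 in nondiabetic 21-week mice (SD, n = 4 and 3), a change of −0.22 ± 0.16 (adjusted p = 0.534). Its level was under the 25th percentile in 5 of 10 arrays, so a difference in Ccr1 may not be measurable here. Most macrophage and monocyte markers moved in the direction of Ccl9 and Ccl6. Their mean over 11 genes was 5.35, 5.36, 5.95 and 5.33 in diabetic mice, against 4.90, 4.98 and 4.69 in nondiabetic 21-week mice and 5.17, 4.72 and 4.82 in nondiabetic 6-week mice. Of these 11 markers, 10 had a positive and 1 a negative change with diabetes, the lowest −0.12. Only 2 rose with diabetes, Cd68 by 1.17 ± 0.21 (adjusted p = 0.0205) and Mrc1 by 1.53 ± 0.33 (adjusted p = 0.0397). The list was highest in diabetic array 3, where Ccl9 and Ccl6 were highest too. The part of the macrophage markers in the Ccl9 and Ccl6 values was not tested.

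Ccl11, the eotaxin that draws eosinophils through Ccr3, measured 5.85, 6.17, 6.84 and 6.82 in diabetic mice, against 5.01, 5.17 and 4.06 in nondiabetic 21-week mice and 6.03, 4.74 and 5.07 in nondiabetic 6-week mice. The diabetic arrays lay above all nondiabetic 21-week arrays but overlapped nondiabetic 6-week array 1. The change with diabetes was 1.67 ± 0.35 (3.19-fold, adjusted p = 0.0334). The call was lost in 6 of 10 fits that left out 1 array, with adjusted p reaching 0.146: without diabetic array 2, 3 or 4, nondiabetic 21-week array 1 or 3, or nondiabetic 6-week array 3. Fibroblast markers, which include the collagens, averaged 5.68, 5.96, 6.09 and 5.76 over 9 genes in diabetic mice, against 5.26, 5.34 and 4.75 in nondiabetic 21-week mice and 6.42, 5.11 and 5.74 in nondiabetic 6-week mice, so nondiabetic 6-week array 1 was high for both. No fibroblast marker passed the threshold in this comparison, and their part in Ccl11 was not tested.

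Ccl8, a monocyte-attracting CC ligand that binds Ccr8 in mice, measured 4.51, 5.11, 5.23 and 3.54 in diabetic mice, against 3.03, 3.81 and 3.61 in nondiabetic 21-week mice and 3.01, 2.67 and 3.32 in nondiabetic 6-week mice. Diabetic array 4 fell among the nondiabetic 21-week arrays, and the change with diabetes was 1.11 ± 0.34 (adjusted p = 0.142). Without diabetic array 4 it was 1.46 (adjusted p = 0.0147), a larger change that follows the omission of the lowest diabetic array. Ccr8, found on some T cells, averaged 3.32 ± 0.25 in diabetic mice and 3.26 ± 0.28 in nondiabetic 21-week mice (SD, n = 4 and 3).

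Ccl9, Ccl6 and Ccl8 are on chromosome 11, as is Ccl11, in 2 runs of neighbouring chemokine genes (starts of successive members less than 500000 bases apart in RefSeq's GRCm38.p6 annotation). The first run has, in order, Ccl2, Ccl7, Ccl11, Ccl12, Ccl8 and Ccl1, and 2 of these 6 were called in some comparison. The other has Ccl5, Ccl9, Ccl6, Ccl3 and Ccl4, and 2 of these 5 were called. Of 7 further runs of 2 to 6 chemokine genes on chromosomes 1, 5, 8 and 9, 6 held 0 called genes, and the run of Ccr9, Cxcr6, Xcr1, Ccr1, Ccr3 and Ccr2 held 1, Cxcr6. Of these, Ccl8 and Cxcr6 were called only in the comparison of diabetic with nondiabetic 6-week mice. Over all genes, 1.44% were called with diabetes, 0.0266% with age and 1.44% in that comparison. The share of called genes in runs of other genes was not computed. The uncalled neighbours Ccl3 and Ccl4, ligands that draw T cells and monocytes, had changes with diabetes of 0.14 ± 0.26 and 0.09 ± 0.17.

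**Figure D2:**
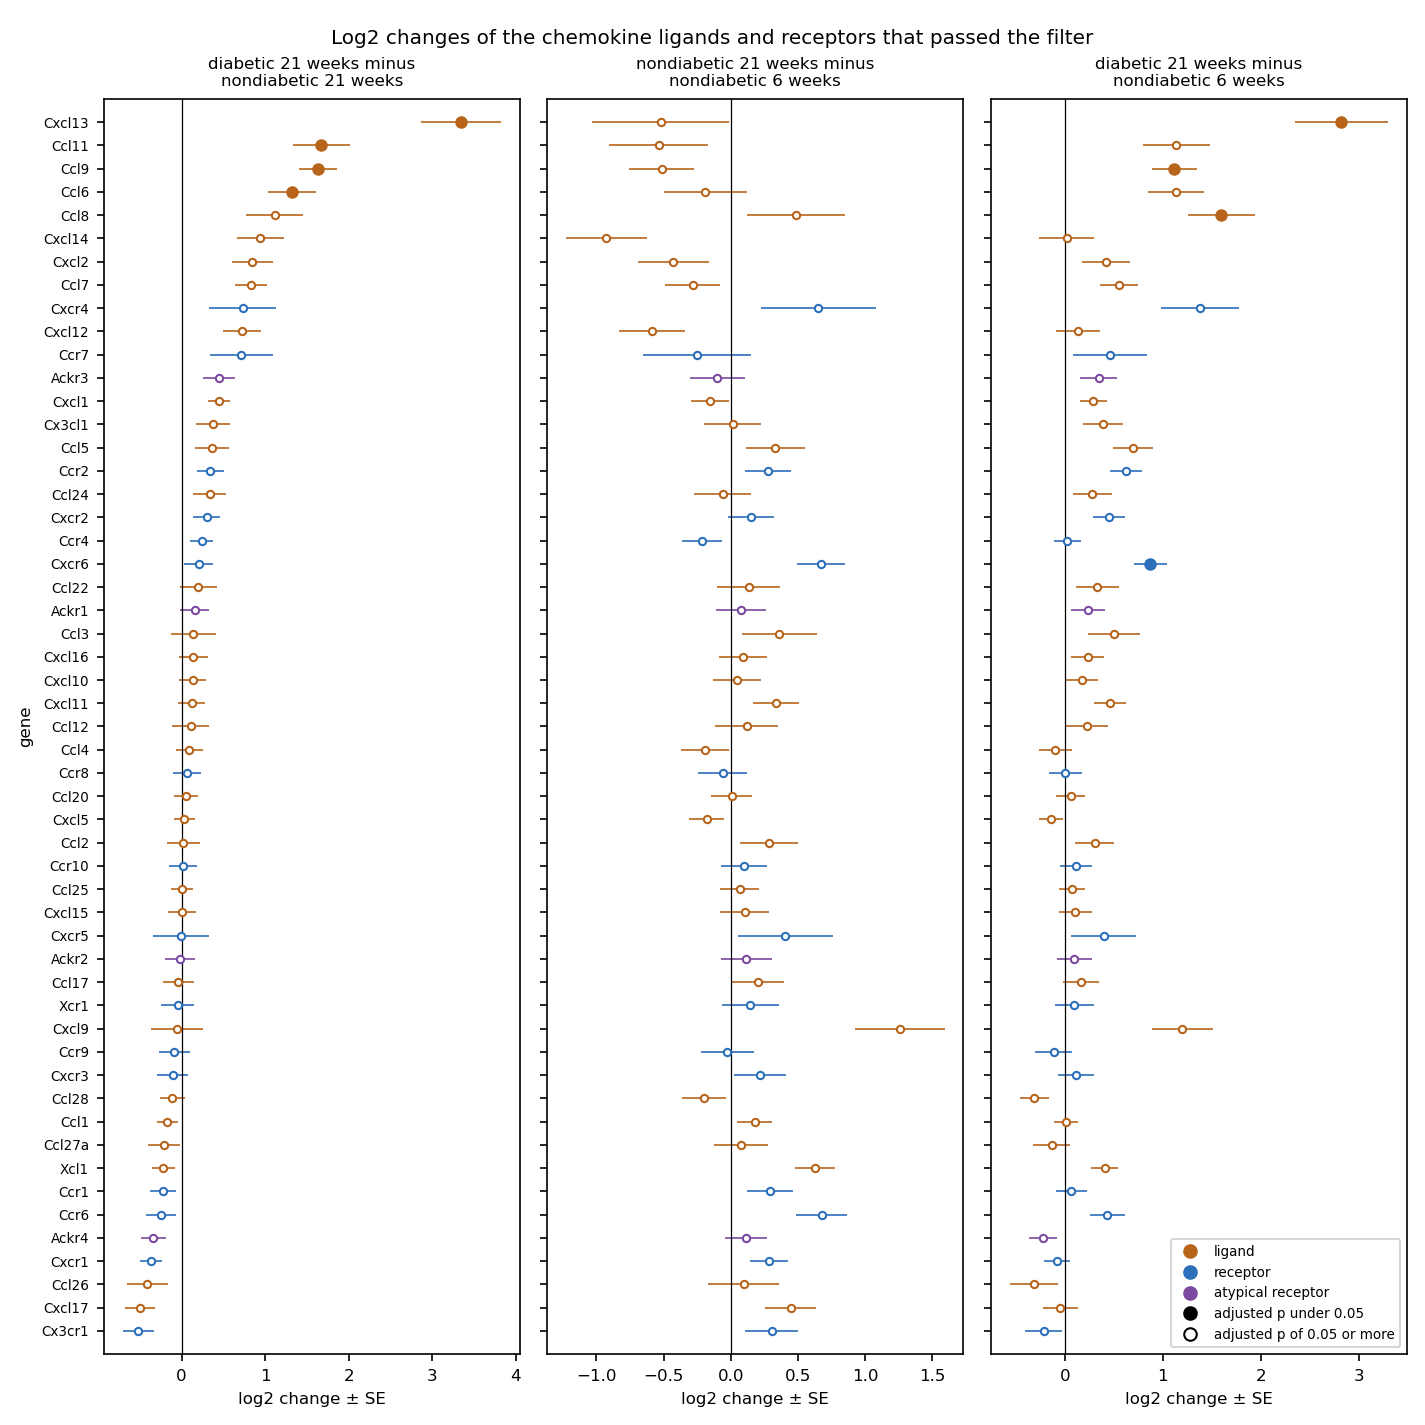
Log2 change ± SE of the 53 chemokine genes in the 3 comparisons, sorted by the change with diabetes, with ligands, receptors and atypical receptors in different colours and filled points for adjusted p under 0.05. Cxcl13 lies farthest to the right in the left and right panels, and the middle panel has no filled point.

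Among the monocyte ligands, Ccl7, which binds Ccr2, measured 4.34, 4.44, 4.29 and 4.16 in diabetic mice, against 3.49, 3.76 and 3.17 in nondiabetic 21-week mice and 4.09, 3.90 and 3.28 in nondiabetic 6-week mice. The diabetic arrays were all above the nondiabetic ones, yet the change of 0.83 ± 0.19 stayed short of the threshold (adjusted p = 0.0547). Ccl2, the main ligand of Ccr2, measured 4.50, 4.54, 4.60 and 4.65 in diabetic mice, against 4.54, 4.26 and 4.86 in nondiabetic 21-week mice and 3.91, 4.80 and 4.08 in nondiabetic 6-week mice, with a change with diabetes of 0.02 ± 0.20. Ccr2, the receptor of inflammatory monocytes, measured 3.62, 3.88, 4.15 and 3.56 in diabetic mice, against 3.54, 3.54 and 3.30 in nondiabetic 21-week mice and 3.41, 3.15 and 2.99 in nondiabetic 6-week mice. The lowest diabetic array was just above the highest nondiabetic one, and the change with diabetes was 0.35 ± 0.16 (adjusted p = 0.324).

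Cxcl1 and Cxcl2 draw neutrophils through Cxcr2. Cxcl1 measured 4.59, 4.75, 4.87 and 4.87 in diabetic mice, against 4.53, 4.22 and 4.22 in nondiabetic 21-week mice and 4.66, 4.40 and 4.38 in nondiabetic 6-week mice. Cxcl2 measured 4.14, 4.08, 4.42 and 4.33 in diabetic mice, against 3.84, 3.69 and 2.67 in nondiabetic 21-week mice and 3.53, 3.80 and 4.15 in nondiabetic 6-week mice. Both were higher on every diabetic array than on any nondiabetic 21-week array, by 0.45 ± 0.13 for Cxcl1 (adjusted p = 0.134) and 0.84 ± 0.25 for Cxcl2 (adjusted p = 0.119), without passing the threshold. Cxcl5, another neutrophil ligand, measured 2.98, 2.91, 3.04 and 2.97 in diabetic mice, against 2.97, 3.06 and 2.80 in nondiabetic 21-week mice and 3.06, 2.99 and 3.31 in nondiabetic 6-week mice. Cxcr2 measured 3.22, 3.18, 3.38 and 3.64 in diabetic mice, against 2.88, 2.96 and 3.32 in nondiabetic 21-week mice and 2.85, 3.13 and 2.73 in nondiabetic 6-week mice. Its change with diabetes was 0.30 ± 0.16, and that of Cxcr1, the related receptor of neutrophils, was −0.36 ± 0.13 (adjusted p = 0.211), with the diabetic arrays below the nondiabetic 21-week ones.

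Cxcl12, a stromal ligand that retains lymphocytes and plasma cells, measured 5.71, 5.38, 6.21 and 6.05 in diabetic mice, against 5.09, 5.51 and 4.75 in nondiabetic 21-week mice and 5.69, 5.39 and 6.03 in nondiabetic 6-week mice. The change with diabetes was 0.72 ± 0.23 (adjusted p = 0.153) and the diabetic range overlapped both nondiabetic ranges. Ackr3, which takes up Cxcl12, measured 4.87, 5.02, 5.47 and 4.98 in diabetic mice, against 4.80, 4.82 and 4.30 in nondiabetic 21-week mice and 5.08, 4.60 and 4.53 in nondiabetic 6-week mice. Its change with diabetes was 0.45 ± 0.19 (adjusted p = 0.280).

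Cxcr4, the receptor of Cxcl12 on most leukocytes, measured 5.91, 5.96, 5.98 and 7.85 in diabetic mice, against 6.07, 5.84 and 5.17 in nondiabetic 21-week mice and 5.18, 4.89 and 5.06 in nondiabetic 6-week mice. Diabetic array 4 was far above the other 3 diabetic arrays, which lay within the range of the nondiabetic 21-week arrays. The change with diabetes was 0.73 ± 0.40 (adjusted p = 0.400) and without diabetic array 4 it was 0.26 (adjusted p = 0.557). Ccr7, the receptor that brings naive lymphocytes and dendritic cells to lymphoid zones, measured 4.80, 4.94, 4.71 and 6.41 in diabetic mice, against 5.01, 4.58 and 3.91 in nondiabetic 21-week mice and 4.95, 5.02 and 4.28 in nondiabetic 6-week mice. As for Cxcr4 and Cxcr5, 1 diabetic array stood above all others, and the change was 0.72 ± 0.38 (adjusted p = 0.385), or 0.32 without that array (adjusted p = 0.578). T cell markers averaged 4.23, 4.20, 4.22 and 5.31 in diabetic mice, against 4.59, 4.24 and 4.03 in nondiabetic 21-week mice and 3.70, 3.72 and 3.54 in nondiabetic 6-week mice. Both lymphocyte lists were thus highest in the array where Cxcr4, Ccr7 and Cxcr5 were highest, and their part in those receptor values was not tested.

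**Figure D3:**
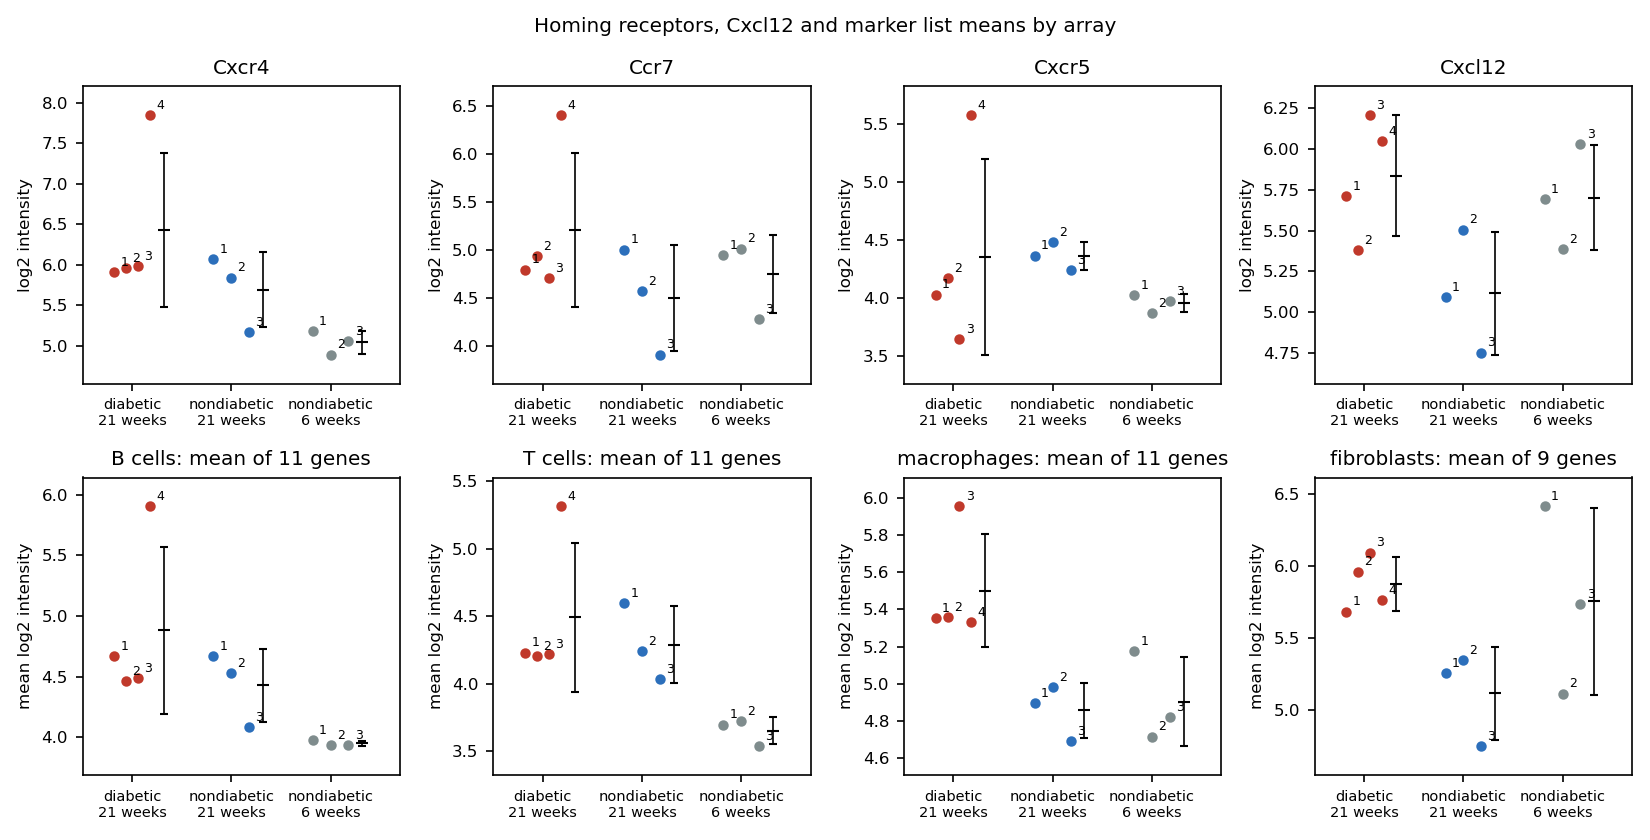
Log2 intensity of Cxcr4, Ccr7, Cxcr5 and Cxcl12 (upper row) and the mean log2 intensity of the B cell, T cell, macrophage and monocyte, and fibroblast marker lists (lower row), 1 numbered point per array with group means ± SD, for 4 diabetic 21-week, 3 nondiabetic 21-week and 3 nondiabetic 6-week mice. Diabetic array 4 is the highest point for the 3 receptors and for the B and T cell lists, and array 3 for the macrophage list.

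The ligands of epithelia included Cxcl14, a CXC ligand of epithelia and fibroblasts, which measured 7.41, 7.51, 7.81 and 7.55 in diabetic mice, against 6.75, 6.89 and 6.24 in nondiabetic 21-week mice and 8.35, 6.85 and 7.45 in nondiabetic 6-week mice. The diabetic arrays were above the nondiabetic 21-week arrays, by 0.94 ± 0.28 (adjusted p = 0.126), and within the nondiabetic 6-week range. Cxcl17, a mucosal ligand, measured 7.31, 7.67, 7.38 and 7.65 in diabetic mice, against 8.12, 7.74 and 8.14 in nondiabetic 21-week mice and 7.19, 7.55 and 7.92 in nondiabetic 6-week mice, a change with diabetes of −0.49 ± 0.18 (adjusted p = 0.206). Ccl28, which draws antibody-secreting cells to mucosal glands, measured 8.17, 7.74, 8.15 and 7.69 in diabetic mice, against 7.94, 8.13 and 8.08 in nondiabetic 21-week mice and 8.17, 8.44 and 8.14 in nondiabetic 6-week mice. Its groups overlapped between diabetic and nondiabetic 21-week mice, with a change of −0.11 ± 0.15. Ccr10, the receptor of Ccl28, measured 3.61, 3.59, 3.76 and 3.84 in diabetic mice, against 3.52, 3.51 and 4.02 in nondiabetic 21-week mice and 3.29, 3.72 and 3.75 in nondiabetic 6-week mice, a change with diabetes of 0.02 ± 0.16.

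Cx3cl1, fractalkine, which is tethered to cell membranes, measured 4.39, 4.80, 4.57 and 4.35 in diabetic mice, against 4.55, 4.32 and 3.59 in nondiabetic 21-week mice and 4.08, 4.17 and 4.16 in nondiabetic 6-week mice. Its receptor Cx3cr1, found on tissue macrophages and patrolling monocytes, measured 5.74, 5.54, 5.53 and 4.95 in diabetic mice, against 6.22, 5.98 and 5.69 in nondiabetic 21-week mice and 5.59, 5.81 and 5.58 in nondiabetic 6-week mice. The change of Cx3cr1 with diabetes was the lowest among the chemokine genes, −0.52 ± 0.19 (adjusted p = 0.201), and that of Cx3cl1 was 0.38 ± 0.20 (adjusted p = 0.386). Ccl20, a ligand of epithelia for Ccr6, measured 4.46, 4.20, 4.28 and 4.40 in diabetic mice, against 4.37, 4.53 and 3.95 in nondiabetic 21-week mice and 4.35, 4.22 and 4.26 in nondiabetic 6-week mice. Cxcl16, the membrane-bound ligand of Cxcr6, measured 6.34, 6.73, 6.19 and 5.95 in diabetic mice, against 6.13, 6.28 and 6.07 in nondiabetic 21-week mice and 5.92, 6.07 and 6.22 in nondiabetic 6-week mice. Neither Ccl20 nor Cxcl16 separated the groups.

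The second comparison set nondiabetic mice of 21 weeks against nondiabetic mice of 6 weeks, an age over which lymphocytes enter the glands of this strain. None of the 53 chemokine genes was called by limma, and 5 of all genes (0.0266%) were, 0.00531% higher and 0.0212% lower. The unadjusted p was under 0.05 for 7 of the 53 chemokine genes, against 1406 of all 18826 genes (7.47%). The groups did not overlap for 8 chemokine genes (15.1%), 6 higher and 2 lower, against 13.8% of all genes, 4.11% higher and 9.73% lower. Ccr6, among the higher genes and among the 7 with an unadjusted p under 0.05, passed the filter only through 21-week arrays. The median change was 0.10 over the chemokine genes and −0.06 over all genes. The same nondiabetic 21-week arrays enter both this comparison and the first, so the 2 sets of values are not independent.

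Cxcl9, Cxcl10 and Cxcl11 are induced by interferon gamma and draw T cells through Cxcr3. Cxcl9 measured 4.73, 5.74, 4.46 and 3.95 in diabetic mice, against 4.65, 4.66 and 5.01 in nondiabetic 21-week mice and 3.30, 3.72 and 3.55 in nondiabetic 6-week mice. All 7 arrays of 21-week mice were above the 3 arrays of 6-week mice, and the change with age was 1.26 ± 0.33 (unadjusted p = 0.0025, adjusted p = 0.481). With diabetes it was −0.06 ± 0.31. Cxcl11 measured 3.40, 3.62, 2.99 and 3.68 in diabetic mice, against 3.31, 3.13 and 3.46 in nondiabetic 21-week mice and 2.98, 2.99 and 2.92 in nondiabetic 6-week mice. Cxcl10 measured 3.77, 3.94, 3.49 and 3.38 in diabetic mice, against 3.57, 3.34 and 3.63 in nondiabetic 21-week mice and 3.47, 3.71 and 3.22 in nondiabetic 6-week mice, and its groups overlapped throughout. Cxcr3 measured 3.94, 4.15, 4.54 and 4.47 in diabetic mice, against 4.66, 4.18 and 4.29 in nondiabetic 21-week mice and 4.23, 4.39 and 3.87 in nondiabetic 6-week mice, and also overlapped between all groups. With age, the 2 chemokine genes with all 21-week nondiabetic arrays below the 6-week ones were Ccl9 (−0.51 ± 0.24, adjusted p = 0.679) and Ccl28 (−0.20 ± 0.16, adjusted p = 0.804).

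Xcl1, a ligand of T and natural killer cells for cross-presenting dendritic cells, averaged 4.54 ± 0.06 in nondiabetic 21-week and 3.92 ± 0.09 in nondiabetic 6-week mice (SD, n = 3 each). Its change with age was 0.63 ± 0.15, the smallest unadjusted p of this comparison among the chemokine genes (0.000984, adjusted p = 0.363). Ccr6, the receptor of Ccl20 on B cells and some T cells, measured 2.89, 2.68, 2.60 and 3.31 in diabetic mice, against 3.26, 3.29 and 2.80 in nondiabetic 21-week mice and 2.37, 2.52 and 2.42 in nondiabetic 6-week mice, a change with age of 0.68 ± 0.19 (adjusted p = 0.481). Ccr6 lay below the 25th percentile on all 3 nondiabetic 6-week arrays and passed the filter only through 21-week arrays, so its change with age is a description. Without the 2 arrays that stood apart the change of Ccr6 was 0.83 (adjusted p = 0.0322, with the same limit), and that of Cxcr4, 0.65 ± 0.42 with all arrays, was 0.91 (adjusted p = 0.0273). The omitted nondiabetic 21-week array 3 was the lowest of its group for both genes. For Cxcr4 it measured 5.17, within the nondiabetic 6-week range of 4.89 to 5.18. That fit kept 2 nondiabetic 21-week arrays, so these larger changes follow the omission of the lowest array. The T cell marker means given above were 4.03 to 4.59 in nondiabetic 21-week mice and 3.54 to 3.72 in nondiabetic 6-week mice, and the B cell means were 4.09 to 4.67 in nondiabetic 21-week and 3.93 to 3.98 in nondiabetic 6-week mice, with 0 called of 11 markers in either list. The part of these lymphocyte markers in the receptor and ligand values was not tested.

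The third comparison, diabetic mice of 21 weeks against nondiabetic mice of 6 weeks, combines age and diabetes. Cxcl13, Ccl8, Ccl9 and Cxcr6 rose and 0 chemokine genes fell, 7.55% of the 53 against 1.44% of all genes called, 0.903% higher and 0.542% lower. It shares arrays with both other comparisons. The groups did not overlap for 16 chemokine genes, all 16 higher in diabetic mice (30.2%), against 16.7% of all genes, 8.2% higher and 8.49% lower. Ackr1 and Ccr6 are among the 16 but lay below the 25th percentile on every nondiabetic 6-week array. They passed the filter only through 21-week arrays, so their place in this count is a description. The unadjusted p was under 0.05 for 16 of the 53 chemokine genes, against 2811 of all 18826 genes (14.9%). Ccr6 is in this count too, with the same limit. The median change was 0.23 over the chemokine genes and −0.02 over all genes, and 43 of the 53 changes were positive.

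Cxcl13 changed by 2.83 ± 0.48 (7.09-fold, adjusted p = 0.0140), Ccl8 by 1.60 ± 0.34 (3.03-fold, adjusted p = 0.0408) and Ccl9 by 1.12 ± 0.23 (2.17-fold, adjusted p = 0.0332). Ccl8, whose diabetic arrays overlapped the nondiabetic 21-week arrays, lay above all nondiabetic 6-week arrays on every diabetic array. Leaving out 1 array ended the Cxcl13 call in 3 of 10 fits (diabetic array 3, nondiabetic 6-week array 2 or 3), with adjusted p up to 0.0785. For Ccl8 and Ccl9 it ended the call in 7 and 6 of 10 fits, with adjusted p up to 0.170 and 0.135. Those arrays were diabetic arrays 1 to 3 and nondiabetic 6-week arrays 1 to 3 for both genes, and nondiabetic 21-week array 2 for Ccl8.

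Cxcr6, a receptor of activated and resident T cells, measured 3.58, 3.69, 3.98 and 3.59 in diabetic mice, against 3.80, 3.60 and 3.12 in nondiabetic 21-week mice and 2.67, 2.84 and 2.99 in nondiabetic 6-week mice. Both groups of 21 weeks lay above the 6-week group without overlap, and the diabetic and nondiabetic 21-week ranges overlapped. In the third comparison the change was 0.87 ± 0.17 (1.83-fold, adjusted p = 0.0285), that with age was 0.67 ± 0.18 (adjusted p = 0.481) and that with diabetes was 0.20 ± 0.17 (adjusted p = 0.598). The call was lost without diabetic array 2 or 3 or any nondiabetic 6-week array, with adjusted p up to 0.113. Cd3g, a part of the T cell receptor complex, also rose in this comparison, by 1.97 ± 0.33 (adjusted p = 0.0122), as the 1 called of 11 T cell markers, and the part of T cell markers in Cxcr6 was not tested.

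Other members in this comparison lay near the threshold without passing it. The change was 1.20 ± 0.31 for Cxcl9 (adjusted p = 0.0839), 0.62 ± 0.16 for Ccr2 (adjusted p = 0.0832) and, for Ccl6, 1.13 ± 0.29 (adjusted p = 0.0783). Cxcr4 was higher on all diabetic arrays, by 1.38 ± 0.40 (adjusted p = 0.118), and by 0.91 without diabetic array 4 (adjusted p = 0.0514). Ccl5, a ligand of T cells and monocytes, measured 5.50, 5.92, 5.74 and 6.16 in diabetic mice, against 5.98, 5.29 and 5.12 in nondiabetic 21-week mice and 5.02, 5.14 and 5.23 in nondiabetic 6-week mice. Its diabetic arrays were above the 6-week ones by 0.70 ± 0.20 (adjusted p = 0.121).

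**Figure D4:**
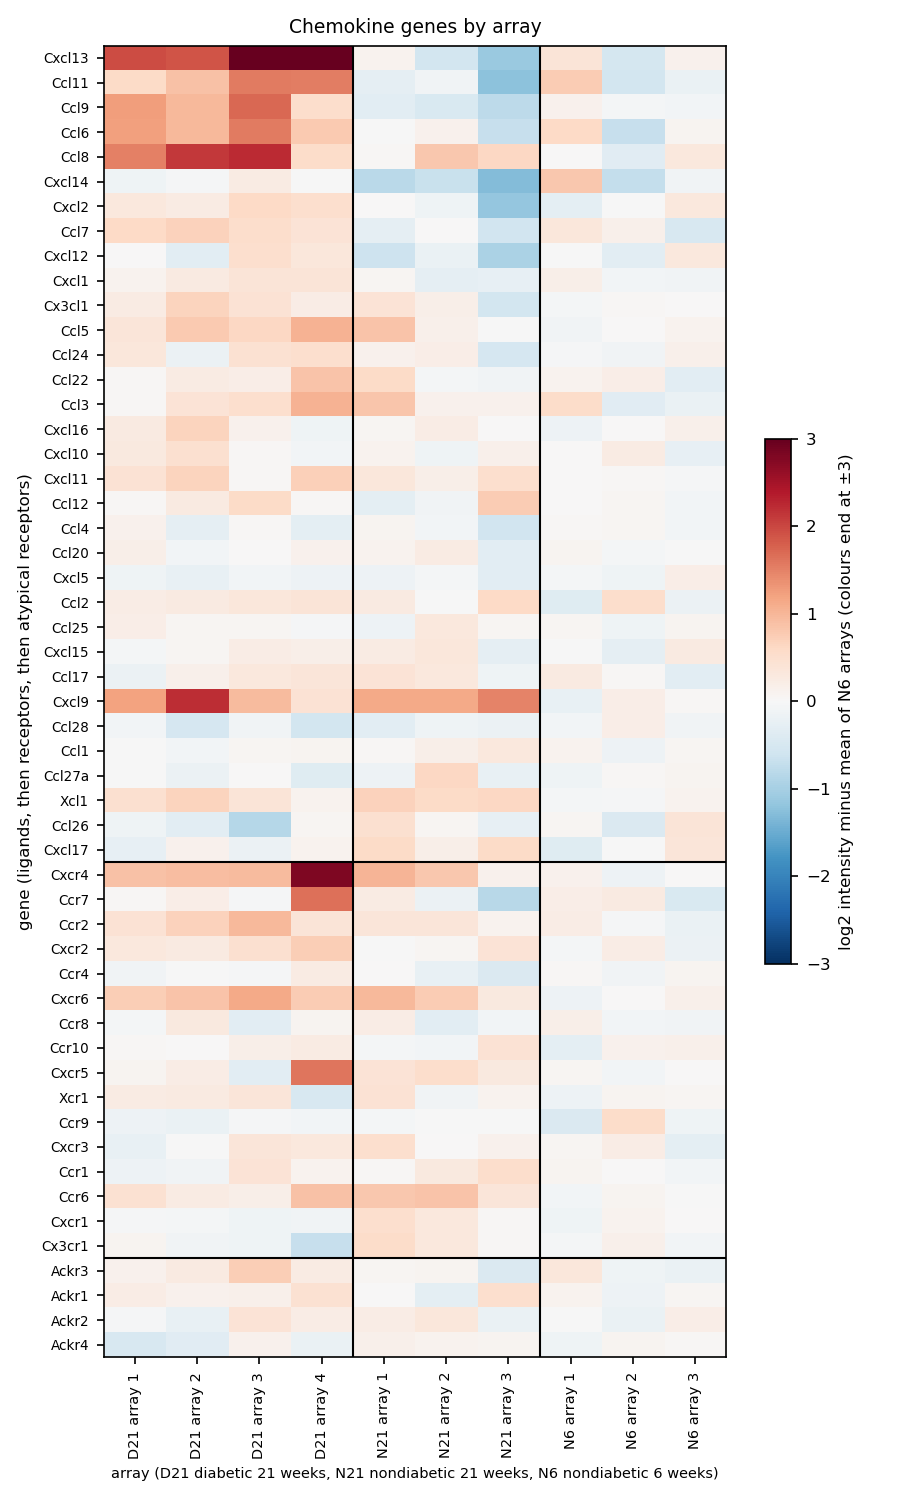
Log2 intensity of each of the 53 chemokine genes on each of the 10 arrays, minus the mean of the 3 nondiabetic 6-week arrays, with ligands above receptors and atypical receptors and the colour scale ending at ±3. Cxcl13, at the top, is red in the 4 diabetic columns and darkest in arrays 3 and 4, and the row of Cxcr4 is darkest red in the column of diabetic array 4.

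The atypical receptors were called in no comparison. Ackr1, which binds chemokines on venules and red blood cells, measured 2.67, 2.58, 2.61 and 2.90 in diabetic mice, against 2.47, 2.16 and 2.96 in nondiabetic 21-week mice and 2.55, 2.31 and 2.50 in nondiabetic 6-week mice, close to the 25th percentile of the arrays. It lay below that percentile on every nondiabetic 6-week array and passed the filter only through 21-week arrays. Ackr2, which takes up inflammatory CC ligands, averaged 4.73 ± 0.28 in diabetic mice, 4.75 ± 0.28 in nondiabetic 21-week mice and 4.63 ± 0.20 in nondiabetic 6-week mice (SD, n = 4, 3 and 3). Ackr4, which takes up Ccl19, Ccl21 and Ccl25, averaged 2.59 ± 0.26 in diabetic mice, 2.93 ± 0.04 in nondiabetic 21-week mice and 2.82 ± 0.11 in nondiabetic 6-week mice, a change with diabetes of −0.34 ± 0.15 (adjusted p = 0.282). Its level was under the 25th percentile in 3 of 4 diabetic arrays and in no nondiabetic array, so it passed the filter through the groups where it was higher.

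The remaining members were not called in any comparison, namely Ccl1, Ccl12, Ccl17, Ccl22, Ccl24, Ccl25, Ccl26, Ccl27a and Cxcl15 among the ligands and Ccr4, Ccr9 and Xcr1 among the receptors. Ccl17 and Ccl22 draw T cells through Ccr4, Ccl25 draws them to the gut through Ccr9, Ccl1 binds Ccr8, Ccl12 binds Ccr2 and Ccl24 is another eotaxin. Their changes with diabetes were between −0.41 for Ccl26 and 0.34 for Ccl24.

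Genes that act with chemokines were counted in 4 lists. Of 9 measured genes close to the chemokine families (13 listed), 22 of receptor signalling (25 listed), 21 of leukocyte adhesion and homing (22 listed) and 20 of lymphoid organisers and inducing cytokines (24 listed), limma called 0 in each of the 3 comparisons. With diabetes, 3, 3, 5 and 3 of them had an unadjusted p under 0.05, with age 1, 3, 1 and 1, and in the third comparison 4, 6, 7 and 7. Over all genes the shares were 15.8% with diabetes, 7.47% with age and 14.9% in the third comparison, so 3 of 22 and 3 of 20 with diabetes were near the share of all genes. Their medians with diabetes were 0.22, 0.20, 0.25 and 0.27, against 0.03 over all genes. Vcam1, an endothelial adhesion molecule for lymphocytes, differed by 0.66 ± 0.15 (adjusted p = 0.0549) and Itgam, an integrin of myeloid cells, by 0.79 ± 0.20 (adjusted p = 0.0704) with diabetes. Ifngr1, a chain of the interferon gamma receptor, differed by 0.75 ± 0.18 with diabetes (adjusted p = 0.0650). Elmo1, which links receptors to Rac, differed by 0.53 ± 0.14 in the third comparison (adjusted p = 0.0985) and by 0.42 ± 0.14 with diabetes (adjusted p = 0.182). Cmtm7, of a family with chemokine-like domains, differed by −0.49 ± 0.14 in the third comparison (adjusted p = 0.121) and by −0.45 ± 0.15 with age (adjusted p = 0.573). Cmtm3, of the same family, differed by 0.51 ± 0.19 with diabetes (adjusted p = 0.235). In the third comparison Irf1, an interferon response factor, differed by 0.94 ± 0.22 (adjusted p = 0.0554), and it differed by 0.52 ± 0.22 with diabetes (adjusted p = 0.272). Dock2, which drives lymphocyte migration, differed by 1.17 ± 0.29 in the third comparison (adjusted p = 0.0710).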

How the data were processed

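The deposited value table holds log2 intensities of 41345 probe sets on 10 arrays, which the authors made, per the submitters' processing notes, with RMA and Affymetrix Power Tools. Versions and settings are not stated there. RMA corrects background, normalizes between arrays and summarises probes, so changes in the total amount of RNA are not seen, and low levels are compressed. A gene table gave 23521 probe sets 1 symbol. The 1814 with more than 1 symbol and the 16010 with no name here did not enter the fit. A probe set had to lie above the 25th percentile of the array on 3 or more arrays, and the brightest stood for the gene, which left 18826 genes. Groups came from the labels. All 10 arrays entered 1 model with a mean per group in limma 3.58.1 (R 4.3.3, lmFit and eBayes, 7 residual and 5.61 prior degrees of freedom), tested two-sided, with Benjamini-Hochberg adjustment over all genes. The steps were tested on simulated data. Promoter windows came from RefSeq tables for GRCm38.p6. Full values are given for chemokine genes past the threshold, for those whose groups do not overlap with a log2 change of at least 1, and for a set of ligands with their receptors. From each list of related genes, the 2 members with the smallest p in any of the 3 comparisons are named. The members and lists were chosen with earlier results of these data known. Alternatives were other filters, probe set rules, variance models, normalizations, thresholds, the replicate number as a block, and arrays left out. Using every probe set was chosen after seeing the data.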

Additional observations from a re-analysis of the deposited data

Results flagged for a closer look

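Among the 53 chemokine genes, 3 had 1 diabetic array far from the other 3, by Dixon's test at the 95% level. Chance alone passes that test in about 1 of 20 groups, so 3 of 53 is near the share of chance. The share over all genes was not computed. Diabetic array 4 was the array far from the others each time. Cxcr4 was 7.85 there, against 5.91 to 5.98 in the other diabetic arrays. Ccr7 was 6.41 there, against 4.71 to 4.94. Xcr1, the receptor of Xcl1 on cross-presenting dendritic cells, was 2.80 there, against 3.54 to 3.65. The B cell marker mean was 5.90 in that array, against 4.46 to 4.67 in the other diabetic arrays, and the T cell marker mean was 5.31, against 4.20 to 4.23. The part of these markers in the 3 genes was not tested.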

How the results depend on the processing

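Ccl9 and Cxcl13 kept their rise with diabetes in all 10 fits that left out 1 array and under all 12 other settings, with Cxcl13 between 7.68-fold and 12.7-fold when 1 array was left out and 6.26-fold without both arrays that stood apart. No called change turned direction. With diabetes, 4 chemokine genes were called, but 2 under quantile normalization, 2 at an adjusted p under 0.01 and 2 with every probe set in the fit, in each case without Ccl11 and Ccl6. Ccl11 (1.20, adjusted p = 0.155) and Ccl6 (1.19, adjusted p = 0.112) were also not called with diabetes without both arrays that stood apart. Ccl6 was not called with no filter either. When 1 array was left out, 2 to 6 were called, with 2 without diabetic array 2 or 3 and without nondiabetic 21-week array 1 or 3. With age, 0 were called, also in each fit without 1 array, and 2 without both arrays that stood apart, Ccr6 and Cxcr4. Ccr6 passed the filter only through 21-week arrays, and the omitted nondiabetic 21-week array was the lowest of its group for both genes. In the third comparison 4 were called, 8 with array weights, 8 without both arrays, 0 at an adjusted p under 0.01, 0 with every probe set, and 0 to 5 when 1 array was left out: 2 without diabetic array 1, 1 without diabetic array 2 or nondiabetic 6-week array 1, and 0 without diabetic array 3 or nondiabetic 6-week array 2 or 3. Of the genes in the 4 related lists, 0 were called with diabetes, but 2 with a filter at the array median, 2 with trended and robust variance and 2 with median centring, and 0 when 1 array was left out. With age, 1 was called without both arrays. In the third comparison 1 was called with the median filter, 1 with trended variance, 5 with array weights, 2 with median centring, 2 with the replicate block, 2 with only the 2 groups compared and 5 without both arrays, and 0 to 3 when 1 array was left out (1 when diabetic array 1 was dropped, 2 for diabetic array 4 and 3 for nondiabetic 21-week array 3). The replicate number as a block gave 4, 0 and 4 chemokine genes with diabetes, with age and in the third comparison, but not the same genes: with diabetes it kept 2 of 4 (Ccl11 and Ccl6 were lost, Ccl7 and Ccl8 added), and in the third comparison 3 of 4 (Cxcr6 was lost, Cxcl9 added). Deviations from the group mean correlated at −0.118 to 0.066 over 9 pairs of samples with the same number. Over 24 other pairs they correlated at −0.109 to 0.15. With 3 or 4 arrays per group, these values cannot decide whether samples with the same number were handled together. Number 4 occurs only among the diabetic arrays. Over all genes, calls with diabetes were 207 higher and 64 lower, but 130 and 100 under quantile normalization. All-gene counts with diabetes were 271, but 69 at an adjusted p under 0.01, 161 with only the 2 groups compared, 126 with every probe set, 176 without both arrays, and 84 to 267 without 1 array. With age they were 5, but 12 with trended variance, 18 with array weights, 42 without both arrays, 3 at the stricter threshold, 0 with only the 2 groups compared (1406 of all genes had an unadjusted p under 0.05 with all groups fitted), 2 with every probe set, and 1 to 10 without 1 array. In the third comparison they were 272, but 672 with array weights, 508 without both arrays, 58 at the stricter threshold, 105 with every probe set, and 48 to 400 without 1 array. The cause of these differences was not tested. The 3 or 4 arrays per group limit what could be called, and weak probe sets such as Ackr1 lie near the filter.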

Other observations

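Ccl21 and Ccl19, ligands of Ccr7 with near-identical gene copies, were measured here by probe sets with several symbols, which were outside the comparisons. Across 9 Ccl21 probe sets, 5 of them distinct in their values, the mean log2 intensity was 5.01, 4.70, 5.51 and 6.90 in diabetic mice, against 4.46, 4.75 and 3.68 in nondiabetic 21-week mice and 4.85, 4.31 and 4.26 in nondiabetic 6-week mice. Diabetic array 4 was the highest, as it was for Ccr7, the receptor of Ccl21. In a fit over 33001 probe sets, limma called 0 of them, with the lowest adjusted p at 0.241 with diabetes. Across 13 Ccl19 probe sets, 9 of them distinct, the means were 3.93 to 4.41 in diabetic mice, against 3.98 to 4.16 in nondiabetic 21-week mice and 3.85 to 4.13 in nondiabetic 6-week mice, with 0 called. A further 11 probe sets with several symbols belong to the Ccl27 copies, 9 of them distinct, and 0 were called. Of the 53 chemokine genes, diabetic array 3 was the highest of the 4 diabetic arrays for 21 and array 4 for 18. Diabetic array 1 was the lowest for 18 and array 4 for 16. The shares over all genes were not computed.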
